A study of Mus musculus with 6 samples.

Results

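Pou3f2 and 8 further genes of the POU family of transcription factors were followed in RNA from whole embryonic mouse hearts. The 9 genes were Pou2f1, Pou2f2, Pou3f1, Pou3f2, Pou3f3, Pou3f4, Pou4f1, Pou5f1 and Pou6f1, taken by symbol from the 46983 genes of the deposited count table. They were chosen by the counts of Pou3f2 in these same libraries, which differed between mutant and control hearts, so the values of that contrast are given as a description and no p is attached to them. Each library held the RNA of 1 heart at E13.5, from embryos of a C57BL/6 x DBA/2 background. The 3 mutant hearts (replicates 1, 5 and 10) were Tnnt2Cre+/-; Wt1 flox/flox, which removes the transcription factor WT1 from cells with a history of Tnnt2 expression. The 3 control hearts (replicates 2, 3 and 5), labelled wild type, were Cre-negative and carried the same pair of floxed Wt1 alleles. The Tnnt2 driver recombines in the myocardium, and the study's methods and results also describe recombination in part of the epicardium, so it is not a cardiomyocyte-restricted model. No control carried Cre without the floxed alleles.

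POU factors bind DNA through a bipartite domain, a POU-specific part joined by a linker to a POU homeodomain, and many recognise the octamer ATGCAAAT or variants of it. Class II members such as Pou2f1 (Oct1) are widely expressed and serve histone, snRNA and immunoglobulin promoters. Class III members, Pou3f1 to Pou3f4, are best known from the developing nervous system, where Pou3f2 (Brn2) acts with Sox factors and is also used in melanocytic and Schwann cell lineages.

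The 4 class III genes each consist of 1 exon, and their POU domains are alike, which bears on whether reads could be assigned to the right gene. The stretches below show a 60-base part of the coding sequence in which they are most alike. Capitals mark bases that differ from Pou3f2, and the letters are GENCODE M21 transcripts (GRCm38) read 5′ to 3′ on the gene's strand.
Pou3f2: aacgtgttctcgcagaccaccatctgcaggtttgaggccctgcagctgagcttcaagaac
Pou3f1: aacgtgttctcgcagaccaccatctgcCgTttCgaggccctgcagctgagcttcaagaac
Pou3f3: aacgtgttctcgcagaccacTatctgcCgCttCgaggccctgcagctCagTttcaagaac
Pou3f4: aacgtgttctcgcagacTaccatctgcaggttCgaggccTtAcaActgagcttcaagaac
These lie at chr4:22487166-22487225 (minus strand), chr4:124658556-124658615 (plus), chr1:42698193-42698252 (plus) and chrX:110815137-110815196 (plus). Pou3f1 had 3 differences from Pou3f2 in this stretch, Pou3f4 had 5 and Pou3f3 had 6. Even so, the longest run of identical bases between the whole transcripts was 38 bases with Pou3f1, 29 with Pou3f4 and 23 with Pou3f3. Of the 5438 windows of 150 bases in the Pou3f2 transcript, 0 occurred in another annotated transcript. At 100 bases the number was also 0, and at 50 bases it was 31 (0.56%). The coding sequence makes up 1335 bases, 23.9% of the Pou3f2 transcript. Of the Pou3f1 windows of 150 bases, 4.92% were shared, all with Gm2164 on the opposite strand, so part of the Pou3f1 count is uncertain.

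Pou3f2 (ENSMUSG00000095139) occupies chr4:22482780-22488366 on the minus strand, and no other annotated gene overlaps it. The 250 bases upstream of its start, from RefSeq's promoter table (GRCm38.p6, chr4:22488367-22488616, minus strand), are shown because this is the gene whose count differed most; capitals mark the CCAAT motifs.
Pou3f2 upstream: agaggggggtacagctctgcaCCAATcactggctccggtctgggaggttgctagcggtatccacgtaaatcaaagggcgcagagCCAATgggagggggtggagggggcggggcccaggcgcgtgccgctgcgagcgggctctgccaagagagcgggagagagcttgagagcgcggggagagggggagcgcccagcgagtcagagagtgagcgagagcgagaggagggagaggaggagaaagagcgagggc
The CCAAT motifs lie at −229 to −225 and −166 to −162 relative to the start. In the whole entry, which runs 50 bases past the start, the GC content was 67.7%, against a median of 52.7% over 32817 promoters. CCAAT was searched on both strands, as were the octamer ATGCAAAT, the WT1 and EGR motif GCGTGGGNG and the TATA motif TATAAA. Of all promoters, 37.39% hold CCAAT, 1.74% the octamer, 1.90% GCGTGGGNG and 13.62% TATAAA. Apart from CCAAT, none of these letters was found in the Pou3f2 entry. GCGTGGGNG had 1 match each in the entries of Pou4f1 and Pou6f1. A match is a description of letters only.

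The libraries held 44244665 to 56373393 counts, and the 10 most abundant genes took 7.16% to 9.51% of them. The limit of detection was set at 3 counts, which corresponds to 0.0522 to 0.0682 CPM (counts scaled to a common library size) in the 6 hearts. The wild type libraries held 2251, 1891 and 879 counts of Wt1 and the mutant libraries 921, 1746 and 1796, so the whole-gene count does not separate the genotypes (log2 fold change −0.10, SE 0.31, adjusted p = 0.990, edgeR; −0.33 and adjusted p = 0.641 without wild type replicate 5). Tnnt2, a defining cardiomyocyte gene, was at 4277 ± 183 CPM in mutant hearts against 3960 ± 73.9 CPM in wild type (SD, n = 3 each). Wild type replicate 5 stood apart: over 11795 genes, its deviation from the mean correlated with gene length at a Spearman's rho of −0.556, against −0.0622 to 0.464 in the other hearts. Values that change with it are also given without it.

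Reads of Pou3f2 numbered 8 in wild type replicate 2, 1 in replicate 3 and 2 in replicate 5. Mutant replicate 1 held 100, replicate 5 held 96 and replicate 10 held 75. All 3 mutant hearts were thus above all 3 wild type hearts, and wild type replicates 3 and 5 were at or below the limit of detection. The exact 95% Poisson interval of the highest wild type count, 8, was 3.45 to 15.8, and that of the lowest mutant count, 75, was 59.0 to 94.0. The counts of 1 and 2 have intervals of 0.0253 to 5.57 and 0.242 to 7.22, so none of the 3 wild type counts excludes a true level of 5 counts in such a library. These intervals, and the limits of detection, cover counting error only, since no molecular identifiers are described that would tell PCR copies apart.

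The Pou3f2 level was 0.142, 0.0174 and 0.0454 CPM in the wild type hearts (0.0683 ± 0.0654, SD, n = 3). In the mutant hearts it was 1.92, 1.83 and 1.49 CPM (1.75 ± 0.228, SD, n = 3). The lowest mutant level, in replicate 10, was above the highest wild type level, in replicate 2. Summed over hearts, 271 counts stood against 11, a ratio of 25.1 after scaling to library size (exact 95% interval 13.8 to 50.9, counting error only). The fitted log2 fold change was 4.61 (SE 0.56). Leaving out the control heart with the most Pou3f2 counts, replicate 2, gave 5.76, and leaving out wild type replicate 5 gave 4.42. In whole hearts, more cells with Pou3f2 RNA and more Pou3f2 RNA per cell cannot be told apart.

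**Figure D1:**
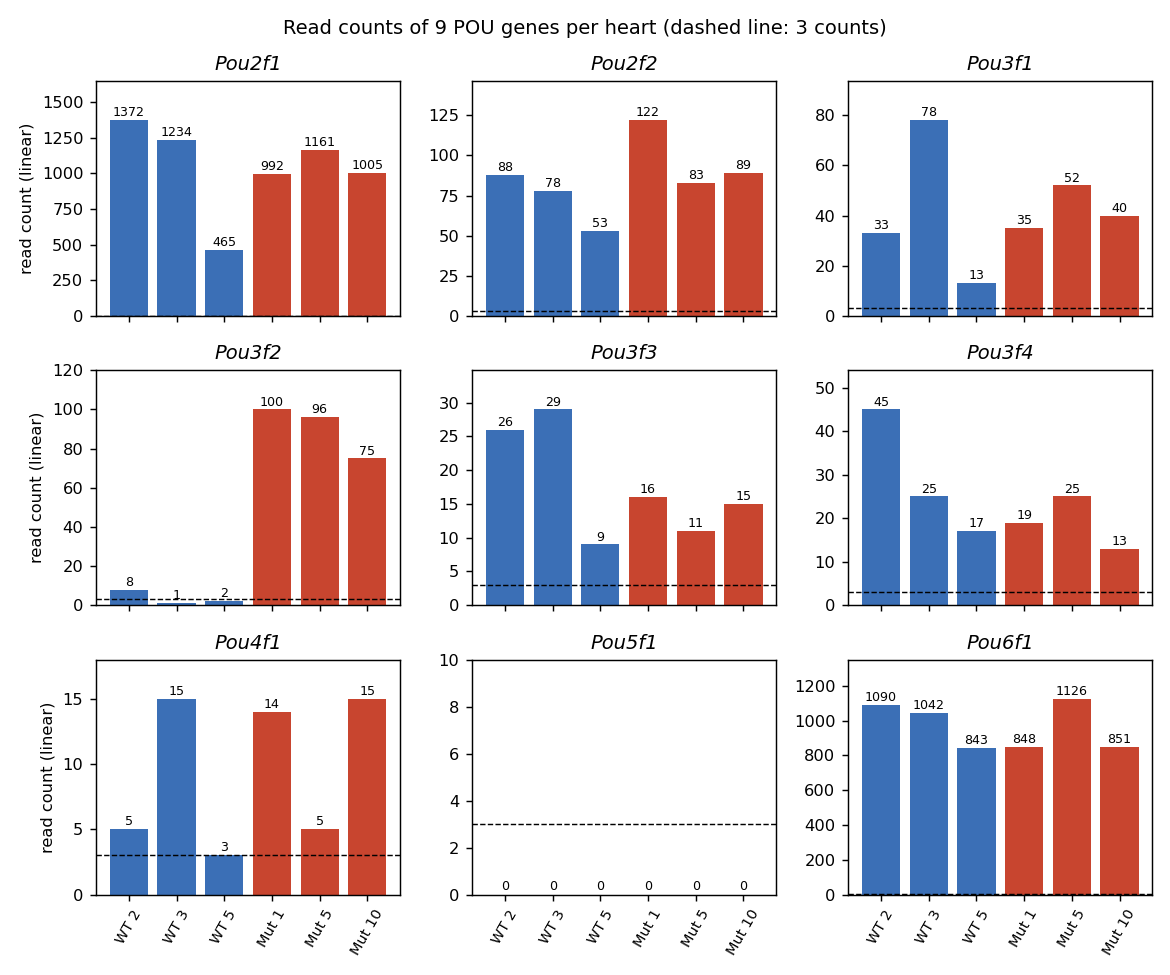
Read counts (linear axes, a separate scale for each gene) of the 9 POU genes in each of the 3 wild type (blue) and 3 mutant (red) hearts, with the limit of 3 counts as a dashed line. Pou3f2 stands at 8, 1 and 2 counts in wild type and at 100, 96 and 75 in mutant hearts, while Pou5f1 has 0 in every heart.

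The other class III genes were low in both groups. Pou3f1 (Oct6, known from Schwann cell myelination; chr4:124656807-124660655, plus strand) had 33, 78 and 13 counts in wild type and 35, 52 and 40 in mutant hearts. The wild type values spanned the mutant values, and the log2 fold change of 0.12 (SE 0.52) moved from −0.24 to 0.88 as each heart was left out, with 3 changes of sign. Pou3f3 (Brn1, a factor of brain and kidney development; chr1:42695768-42703176, plus strand) had 26, 29 and 9 counts in wild type and 16, 11 and 15 in mutant hearts (log2 fold change −0.53, SE 0.47). Pou3f4 (Brn4, a factor of inner ear development; chrX:110814280-110817207, plus strand) had 45, 25 and 17 counts in wild type and 19, 25 and 13 in mutant hearts (log2 fold change −0.56, SE 0.44). For Pou3f3 and Pou3f4 the log2 fold change stayed below 0 with each heart left out, at −0.82 to −0.31 and at −0.80 to −0.16. Without wild type replicate 5 it was −0.82 for Pou3f3 and −0.74 for Pou3f4. The groups overlapped in both genes, for Pou3f3 only through wild type replicate 5 (0.204 CPM). The other wild type hearts were at 0.462 and 0.504 CPM of Pou3f3, and the mutant hearts at 0.210 to 0.308 CPM. Summed over hearts, Pou3f4 gave a ratio of 0.668 (0.470 to 0.944) and Pou3f3 one of 0.669 with an interval that reached past 1, again counting error only.

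The make-up of the class III transcripts differed between the groups. Per length, in FPKM (the count divided by the gene length in kilobases and by the library size), the 4 genes together summed to 0.520, 0.584 and 0.243 in wild type and 0.698, 0.780 and 0.570 in mutant hearts. Pou3f2 contributed 4.96%, 0.544% and 3.33% of this sum in the wild type hearts. It contributed 50.2%, 42.2% and 44.3% in the mutant hearts. Without Pou3f2 the class summed to 0.495, 0.580 and 0.235 FPKM in wild type and 0.348, 0.451 and 0.317 FPKM in mutant hearts. The groups overlapped in this sum only through wild type replicate 5, at 0.235 FPKM. The other wild type hearts, at 0.495 and 0.580 FPKM, lay above all mutant hearts.

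The class II genes differed in abundance. Pou2f1, the broadly expressed Oct1 (chr1:165865154-166002678, minus strand), had 1372, 1234 and 465 counts in wild type and 992, 1161 and 1005 in mutant hearts. Its lowest value by far was in wild type replicate 5, and the log2 fold change of 0.12 (SE 0.27) became −0.17 without that heart. Of its exon bases, 18.12% lie opposite to Cd247, a T cell receptor subunit gene. Pou2f2, the Oct2 gene used in B cells (chr7:25087344-25179726, minus strand), had 88, 78 and 53 counts in wild type and 122, 83 and 89 in mutant hearts. At 1.90 ± 0.398 CPM in mutant hearts against 1.37 ± 0.180 CPM in controls (SD, n = 3 each), its groups did not overlap, but the nearest hearts were only 1.56 CPM (wild type replicate 2) and 1.58 CPM (mutant replicate 5). Its log2 fold change was 0.46 (SE 0.26), with a range of 0.29 to 0.57 over the fits that left out 1 heart and a value of 0.38 without wild type replicate 5.

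The remaining members showed no separation. Pou4f1 (Brn3a, a sensory neuron factor; chr14:104461676-104467999, minus strand) had 5, 15 and 3 counts in wild type and 14, 5 and 15 in mutant hearts, with a log2 fold change of 0.62 (SE 0.68) that ran from 0.33 to 1.45 with each heart left out. Pou6f1 (a class VI factor; chr15:100575318-100599984, minus strand) had 1090, 1042 and 843 counts in wild type and 848, 1126 and 851 in mutant hearts (log2 fold change −0.05, SE 0.13). Pou5f1, the Oct4 gene of pluripotent and germ cells (chr17:35506018-35510772, plus strand), had 0 counts in each of the 6 hearts. Pou5f1 was thus below the limit of detection of 3 counts, which is 0.0522 to 0.0682 CPM. The exact 95% Poisson interval of 0 counts reaches 3.69, so levels up to 0.0641 to 0.0838 CPM remain possible at this depth.

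Of the 9 genes, 8 passed the filter on low counts, and Pou3f2 passed it only through the mutant hearts. The mutant hearts lay entirely above the wild type hearts in Pou3f2 and Pou2f2, and entirely below them in none of the 8. Over all 17473 genes tested, 11.2% had groups that did not overlap, 6.61% with the mutant above and 4.59% with the mutant below. Since this contrast chose the genes, nothing is read from that count. EdgeR's quasi-likelihood test gave 0 of 17473 genes (0%) a Benjamini-Hochberg adjusted p under 0.05, 1002 (5.73%) an unadjusted p under 0.05 (3.14% higher and 2.59% lower in the mutant), and a smallest adjusted p of 0.0991. DESeq2 called 132 of 19493 genes (0.677%). None of the tested genes had a larger log2 fold change than Pou3f2. It was also the 1 gene of 46983 with at most 10 counts in each wild type heart and at least 50 in each mutant heart, and 0 genes had the reverse pattern. Those limits were chosen after its counts were seen. Its rank by log2 fold change uses the contrast that chose it. Both are therefore descriptions, and nothing is read from them.

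**Figure D2:**
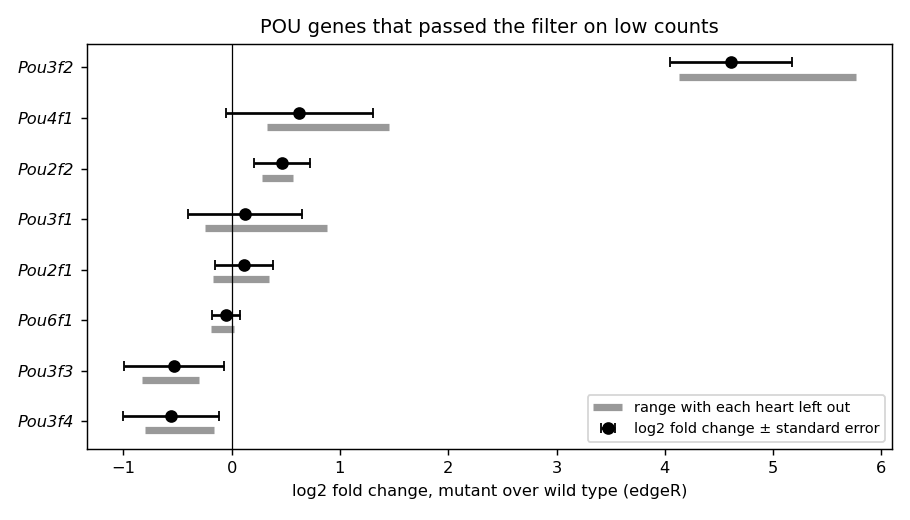
Log2 fold change of mutant over wild type hearts (edgeR) for the 8 POU genes that passed the filter on low counts. Points show the fit to all 6 hearts with its standard error, and grey bars the range as each heart was left out. Pou3f2 lies at 4.61 with a range of 4.13 to 5.76, and the other 7 genes lie between −0.56 and 0.62.

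The levels of the 9 genes were ordered per length, as FPKM. In wild type hearts the order was Pou6f1 (6.75 to 7.17 FPKM), Pou2f1 (3.50 to 8.23), Pou2f2 (0.453 to 0.599), Pou3f1 (0.0763 to 0.359), Pou3f4 (0.131 to 0.277), Pou4f1 (0.0259 to 0.101), Pou3f3 (0.0275 to 0.0694), Pou3f2 (0.00318 to 0.0258) and Pou5f1 (listed at 0). Pou6f1 and Pou2f1 overlapped in range, as did Pou3f1 and Pou3f4, and Pou4f1 and Pou3f3. The limit of 3 counts corresponds to 0.00953 to 0.0121 FPKM for Pou3f2, so its wild type level spanned that limit. In mutant hearts Pou3f2 (0.253 to 0.351 FPKM) took rank 4 instead of rank 8, between Pou2f2 (0.601 to 0.903) and Pou3f1 (0.178 to 0.259), whose range it overlapped.

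The length used for the FPKM matters for that order. The deposited values use 1 length per gene, and for the single-exon class III genes it equals the exon bases of GENCODE M21 (5587 bases for Pou3f2). For Pou2f1 it was 3004 bases against 16597 exon bases, and for Pou2f2 2646 against 8243. With exon bases as the length, an alternative added after the data were seen, Pou3f2 took rank 3 in the mutant hearts, where its range overlapped that of Pou2f2 (0.193 to 0.290), and stayed at rank 8 in wild type hearts. The median of Pou3f2 in mutant hearts was 0.329 by both lengths. That of Pou2f1 was 6.47 with the deposited length and 1.17 with exon bases, so the distance between these genes depends on the length used.

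**Figure D3:**
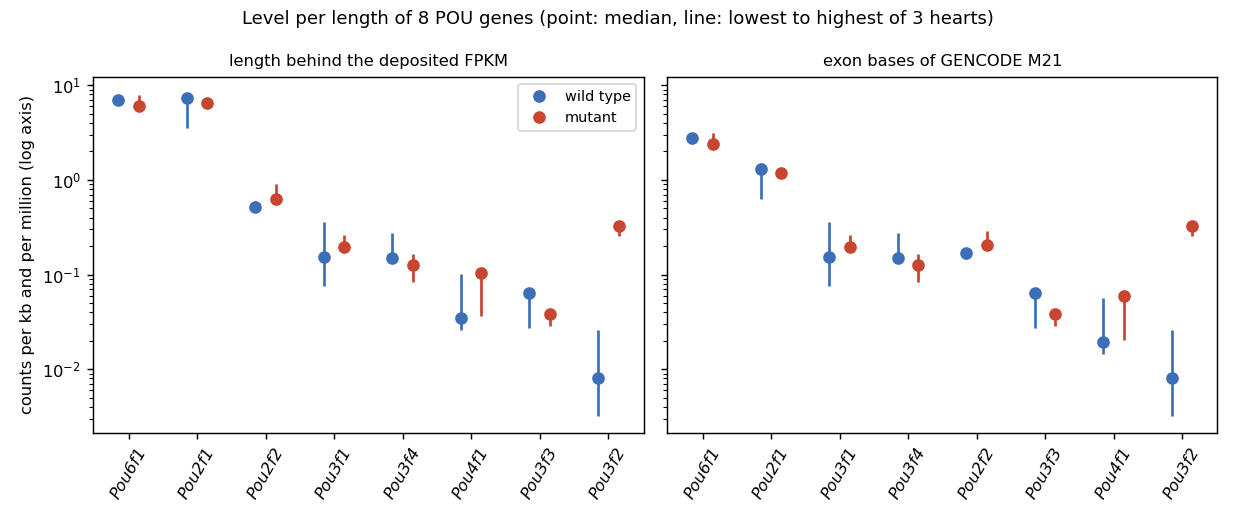
Level per length (count per kilobase and per unit of raw library size, as in FPKM, log axis) for the 8 POU genes with counts, in wild type (blue) and mutant (red) hearts, with the length behind the deposited FPKM on the left and the exon bases of GENCODE M21 on the right. Points are medians and lines run from the lowest to the highest of 3 hearts. Pou3f2 has the lowest median in wild type hearts and lies at 0.253 to 0.351 in mutant hearts.

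Other POU genes in the table were read beside the 9, with values only, since those given here had too few counts to be tested. The epidermal and tuft cell factor Pou2f3 had 2, 5 and 0 counts in wild type and 3, 13 and 9 in mutant hearts. Pou2af1, the B cell coactivator of octamer factors, had 15 counts in wild type replicate 5, 0 in the other wild type hearts, and 1, 4 and 4 in mutant hearts. Pou1f1 had 2 counts in wild type replicate 5 alone, Pou4f2 had 2 in mutant replicate 1 alone, and Pou5f2 had 3 in wild type replicate 3 and 4 in mutant replicate 10. Pou4f3 had 0 counts in all 6 hearts. In at least 3 of the 6 hearts, each of these genes was at or below the limit of detection.

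A list of 25 partners and coactivators of POU factors held 22 tested genes. They had a median log2 fold change of −0.04, against −0.00101 over all genes tested, and 0 had an adjusted p under 0.05. Their unadjusted p was under 0.05 for 1 lower and 0 higher genes (5.73% of all genes tested in either direction, edgeR). That gene was Sox3, a SoxB1 factor of neural progenitors, which had 1154, 688 and 374 counts in wild type and 331, 211 and 345 in mutant hearts. All mutant values lay below all wild type values, and the log2 fold change was −1.25 (SE 0.33, unadjusted p = 0.00549, adjusted p = 0.547, edgeR). Without wild type replicate 5 the Sox3 value was −1.497 (adjusted p = 0.0869, edgeR), and the number of list genes with an unadjusted p under 0.05 was 5. Calls rose over all genes in that fit, from 0 to 44 with an adjusted p under 0.05 (edgeR). The share of all genes with an unadjusted p under 0.05 in that fit is not given here. A higher number without that heart is therefore not read as particular to this list or to those below.

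The genes around Pou3f2 were also compared. Within 1 Mb of its start, 23 other genes are listed, of which 8 were tested. Their log2 fold changes had a median of 0.05, 5 above 0 and 3 below, and 0 had an adjusted p under 0.05. Fbxl4, an F-box gene and the nearest tested protein-coding gene at 130.8 kb, had a log2 fold change of 0.19 (SE 0.12, adjusted p = 0.968, edgeR). Faxc (0.10), Coq3 (0.07), Pnisr (−0.17), Tstd3 (−0.02), Usp45 (0.08) and Ccnc (0.04) lay at 557.0 to 760.7 kb. The processed pseudogene Gm11878, 31.3 kb upstream, had 42, 17 and 41 counts in wild type and 10, 18 and 12 in mutant hearts (log2 fold change −1.33, SE 0.51, unadjusted p = 0.0313, adjusted p = 0.827, edgeR). The groups overlapped, and without wild type replicate 5 none of the tested neighbours had an unadjusted p under 0.05. The lincRNA RP23-381K3.5, whose start lies 2.2 kb upstream on the opposite strand, had 4 counts in mutant replicate 5 and 0 in the other hearts. Prdm13, a neural transcriptional regulator, had 1 count in wild type replicate 2 and 1 in mutant replicate 10. Gm37900 had 3 counts in wild type replicate 3 alone, and Gm11884 had 1 count in wild type replicate 2, 1 in mutant replicate 5 and 2 in mutant replicate 10. The other 11 neighbours, among them Gm11881, Gm24607 and 1700025O08Rik, had 0 counts in all hearts.

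**Figure D4:**
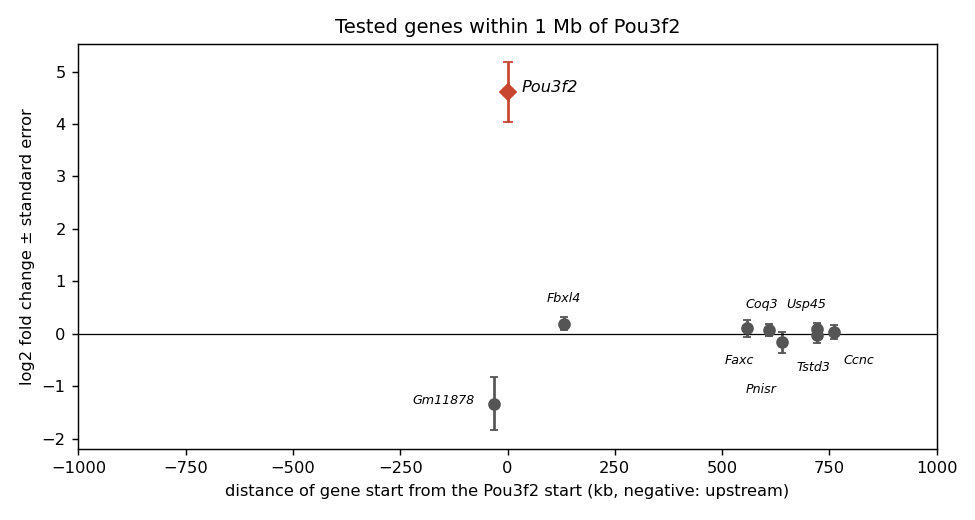
Log2 fold change with standard error (edgeR) of the 8 tested genes within 1 Mb of Pou3f2, by the distance of their start from that of Pou3f2 in kb. Pou3f2 (red) lies at 4.61, the neighbours between −1.33 and 0.19.

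The 5 tested genes whose log2 CPM was most like that of Pou3f2 over the 6 hearts were Fam13c (Pearson's r = 0.999), Ncf1 (0.994), Msr1 (0.993), Pdxdc1 (0.987) and Cish (0.987). These are descriptions over 6 hearts in 2 groups, with no p. They use the Pou3f2 values that chose the genes, and within wild type they rest on the order of 8, 1 and 2 counts, which counting error does not resolve. Each of the 5 genes had all mutant hearts above all wild type hearts by CPM. Their log2 fold changes were 0.21, 0.41, 1.28, 0.14 and 0.41 in that order, each below that of Pou3f2. Fam13c had 596, 570 and 445 counts in wild type and 617, 618 and 591 in mutant hearts, and Pdxdc1 had 5251, 5090 and 3982 against 5214, 5177 and 5063. Msr1, a macrophage scavenger receptor, had 160, 131 and 116 counts in wild type and 348, 328 and 298 in mutant hearts. Ncf1, a subunit of the phagocyte NADPH oxidase, had 227, 201 and 165 counts in wild type and 259, 271 and 245 in mutant hearts. Cish, a cytokine-induced signalling inhibitor, had 413, 354 and 302 against 484, 466 and 443.

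Marker lists of cell types that use POU factors were read beside these values. Of 24 neuron, neural crest and glia genes, 23 were tested, with a median log2 fold change of −0.22. An unadjusted p under 0.05 was found for 1 higher and 2 lower genes (5.73% of all genes tested in either direction, edgeR). Prph, a neuronal intermediate filament gene, had 35, 55 and 39 counts in wild type and 78, 128 and 141 in mutant hearts (log2 fold change 1.45, SE 0.33, unadjusted p = 0.00208, adjusted p = 0.385, edgeR). Syt1, a synaptic vesicle calcium sensor (−0.85), and Isl1, a factor of neurons and cardiac progenitors (−0.66), had an unadjusted p under 0.05 in the other direction. With wild type replicate 5 left out, a fit in which adjusted calls rose over all genes, 5 genes of the list had one. Prph was then at 1.51 and Syt1 at −0.98. The summed level of the list was 94.7 to 98.0 CPM in wild type hearts, and the mutant range of 85.3 to 99.1 CPM overlapped it. Of the 10 melanoblast genes, 8 were tested, with a median log2 fold change of 0.33. Ednrb, the endothelin receptor of that lineage and of other heart cells, was at 0.40 with an unadjusted p of 0.0411 (edgeR). It was at 0.27 with an unadjusted p of 0.0667 without wild type replicate 5. Tyrp1, a melanin enzyme gene, was at 0 in all hearts, and the list summed to 171.1 to 240.2 CPM in controls and 228.8 to 292.0 CPM in mutants, ranges that overlap. Ednrb made up most of these sums at 114.4 to 210.2 CPM. Dct, Tyr, Pmel and Mlana each lay within 0.104 to 1.85 CPM, so the sums are no measure of melanoblasts.

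Foregut and airway epithelium genes differed between hearts of the same group. Nkx2-1, a defining factor of lung and thyroid, had 64 counts in wild type replicate 5 and 65 in mutant replicate 5, 8 in mutant replicate 1 and 0 in the other 3 hearts. The part of such tissue in the values of the POU genes was not tested. Of the 19 genes of the list, 14 were tested, with a median log2 fold change of 0.05 and overlapping sums of 22.8 to 43.8 CPM (wild type) and 31.7 to 62.7 CPM (mutant). Prom1 held 13.3 to 22.2 CPM of these sums, and Cldn3 held 6.18 to 15.7 CPM in mutant hearts. The tight junction gene Cldn3 had 51, 65 and 75 counts in wild type and 321, 589 and 788 in mutant hearts (log2 fold change 3.15, SE 0.38, adjusted p = 0.0991, edgeR). It did not pass the threshold of 0.05 with all hearts, and did without wild type replicate 5 (log2 fold change 3.43, adjusted p = 0.0219, edgeR). With all hearts, 1 gene of the list had an unadjusted p under 0.05, against 5.73% of all genes tested (edgeR). Without wild type replicate 5, where adjusted calls rose over all genes, 3 genes of the list did. The heart with the most Cldn3 counts, mutant replicate 10, had 0 of Nkx2-1 and of Foxa1. The same heart had 29 counts of Epcam, 51 of Cldn4 and 58 of Cldn7. The part of epithelium in the Cldn3 values was not tested.

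Of 14 B cell and macrophage genes, 10 were tested, with a median log2 fold change of 0.36, and 5 had groups that did not overlap (11.2% of all genes tested). An unadjusted p under 0.05 was found for 6, all higher (5.73% of all genes tested in either direction, 3.14% higher), and an adjusted p under 0.05 for 0. Among them, with log2 fold changes beside each, were Adgre1, the F4/80 antigen (0.73), Csf1r, the macrophage growth factor receptor (0.37), Ptprc, the pan-leukocyte antigen CD45 (0.60), and Cx3cr1, a chemokine receptor (0.32). Mrc1, the macrophage mannose receptor, had 749, 904 and 502 counts in wild type and 461, 825 and 548 in mutant hearts (−0.19, unadjusted p = 0.418, edgeR). The summed level reached 177.8 to 190.7 CPM in the mutant hearts against 123.5 to 158.1 CPM in the controls. The groups did not overlap in this sum. Lyz2 held 75.4 to 92.9 CPM of it in mutant hearts and 40.5 to 82.5 CPM in controls, ranges that overlap. Pax5, a defining B cell factor, was at 0 to 1 counts in every heart. The part of these cells in the values of Pou3f2 and Pou2f2 was not tested. The number with an unadjusted p under 0.05 fell to 5 when wild type replicate 5 was left out, where Ptprc (0.40) and Cx3cr1 (0.25) no longer had one, and to 2 when wild type replicate 3 or mutant replicate 10 was.

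A list of pluripotent and germ cell genes was read beside Pou5f1. Of 14 genes, 7 were tested, with a median log2 fold change of −0.10 and overlapping sums of 22.7 to 29.0 CPM (wild type) and 25.8 to 34.0 CPM (mutant). Kit, a receptor that melanoblasts and blood progenitors also use, made up most of these sums at 15.8 to 26.7 CPM. Dppa5a and Prdm14 were at 0 in all hearts. The RNA-binding protein gene Lin28a had 91, 80 and 18 counts in wild type and 17, 22 and 11 in mutant hearts (log2 fold change −1.82, SE 0.54, unadjusted p = 0.00982, adjusted p = 0.652, edgeR), and the groups overlapped. Without wild type replicate 5 it was at −2.21 (adjusted p = 0.0847, edgeR). All 15 cardiomyocyte genes were tested, with a median log2 fold change of 0.08 and sums of 31184 to 33581 CPM (wild type) and 33220 to 37287 CPM (mutant). Pln, which encodes the calcium pump regulator phospholamban, was at 0.42 and Myl7, the atrial light chain gene, at −0.48, each with an unadjusted p under 0.05. Over all genes tested, 5.73% had one (edgeR). With wild type replicate 5 left out, a fit in which adjusted calls rose over all genes, 4 genes of this list had one. Pln was then at 0.53 and Myl7 at −0.32 (unadjusted p = 0.0947, edgeR).

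**Figure D5:**
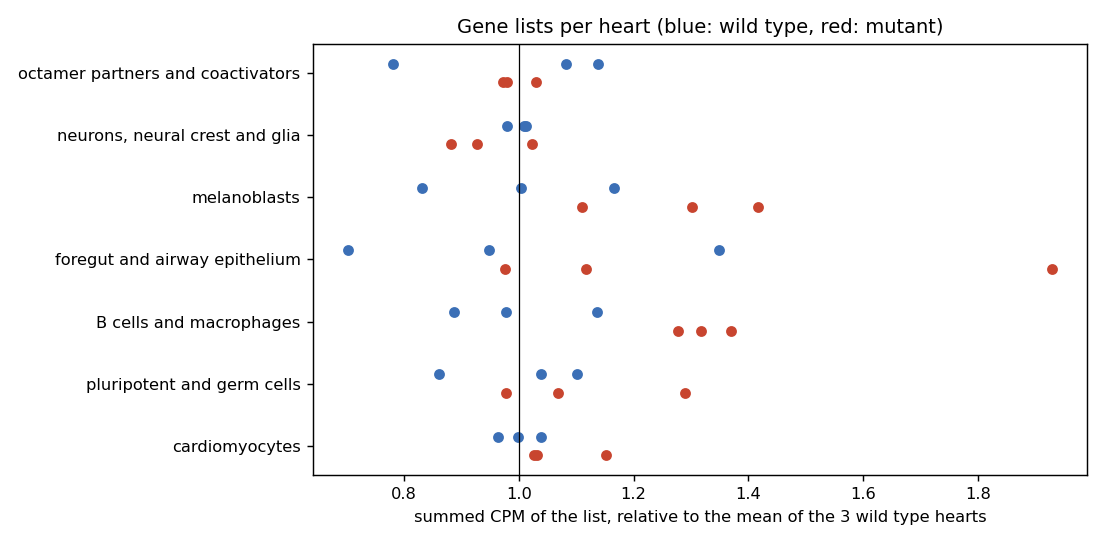
Summed CPM of each gene list in each heart, divided by the mean of the 3 wild type hearts (wild type blue, mutant red). Only the B cell and macrophage list has all mutant hearts above all wild type hearts, at sums of 177.8 to 190.7 CPM against 123.5 to 158.1 CPM.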

How the data were processed

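RNA from 6 whole hearts, 1 heart per library, was sequenced (3 mutant, 3 wild type). According to the study's methods, the authors aligned the reads with STAR and counted uniquely mapped reads per gene with featureCounts, while the submitters' processing notes name HTSeq and DESeq2. The authors deposited raw counts and, beside them, FPKM values that equal each count over a fixed gene length and the library total, with a largest relative deviation of 8.1e-15. The strand setting of the counting is not given in the sources used here. A further deposited table holds the FPKM mean of each group and was not used here.

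Counts were fitted in R 4.3.3 with edgeR 4.0.16 (quasi-likelihood, TMM, filterByExpr at its defaults of 10 counts and 15 in total, two-sided, Benjamini-Hochberg adjusted p under 0.05). DESeq2, which the study also used, was run here in version 1.42.0, and limma in version 3.58.1, as alternatives. The standard error is the log2 fold change divided by the square root of F. CPM values use TMM library sizes. The edgeR step was tested on simulated data, with changes placed only in genes of higher mean count than Pou3f2. It was not tested on counts as low as those of Pou3f2. Of the genes listed, 46488 matched GENCODE M21, and 101 repeat the symbol of a gene listed before them. Sequences are from GENCODE M21 and RefSeq, and 8 of the 9 genes had a promoter entry.

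The POU genes and all lists were chosen with earlier results of these data known. The genes named are the 9, other POU genes, those within 1 Mb of Pou3f2, the list members with an unadjusted p under 0.05 (up to 4 with the smallest p) and the 5 most correlated with Pou3f2 (log2 CPM, prior count 2). Nkx2-1, Foxa1, Epcam, Cldn4, Cldn7, Prom1, Tyrp1, Dct, Tyr, Pmel, Mlana, Pax5, Mrc1, Lyz2, Kit, Dppa5a and Prdm14 were named after their values were seen. Some genes that this rule names are not reported here. The labels give no litter or batch. Each library is a separate heart.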

Additional observations from a re-analysis of the deposited data

How the results depend on the processing

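The log2 fold change of Pou3f2 stayed above 0 in every alternative. It was 4.66 with DESeq2, 4.85 with voom, 4.61 with RLE size factors, 4.62 with no filter and 4.60 with a minimum of 1 CPM in 3 hearts. It was 0.37 on the log2(FPKM + 1) scale and 1.87 on the log2(FPKM + 0.1) scale, since a pseudocount above the level of a low gene shrinks its change. With each heart left out it ran from 4.13 to 5.76. The number of genes with an adjusted p under 0.05 was 132 with DESeq2 and 34 with no filter on low counts, against 0 in the main analysis, and ran from 0 to 44 with each heart left out (44 without wild type replicate 5). The cause was not tested. Among the other members the sign changed in 1 setting for Pou2f1, 3 for Pou3f1 and 2 for Pou6f1, all with a heart left out. Pou2f2, Pou3f3, Pou3f4 and Pou4f1 kept their sign. The numbers of list genes with an unadjusted p under 0.05 ran from 1 to 5 for partners and coactivators, from 2 to 5 for neurons, neural crest and glia, from 2 to 6 for B cells and macrophages, from 0 to 4 for cardiomyocytes, from 1 to 3 for foregut and airway epithelium, from 0 to 2 for pluripotent and germ cells and from 0 to 2 for melanoblasts. The melanoblast number was 0 in both FPKM fits and without wild type replicate 3, mutant replicate 5 or mutant replicate 10. In the main fit these lists held 22, 23, 10, 15, 14, 7 and 8 tested genes, in the order given. Over all genes tested in that fit, 5.73% had an unadjusted p under 0.05 (edgeR). The share is not given for the other settings, so these ranges are a description only. No paired analysis was possible because the groups share only the number 5. Depth limits statements on Pou5f1 and on Pou3f2 in wild type hearts, where counts of 3 or fewer cannot be ranked.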
